A study of Rattus norvegicus with 2 samples.

Results

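The 8 genes described here mark neurons that use GABA or glutamate, together with the astrocytes that serve both kinds of synapse. They are Gad1, Gad2 and Slc32a1 for GABA neurons, the vesicular glutamate transporters Slc17a6, Slc17a7 and Slc17a8 for glutamate neurons, and Slc6a11 and Glul for astrocytes. They were chosen by name, from the gene name that the array files give to each spot that is not a control. All 8 were well above background in both samples, among 20664 genes so measured of 26328 genes and other targets on the arrays. They were carried by 9 probes on 18 spots. Slc17a6 had 10 spots of 1 probe, Gad1 had 2 probes with 1 spot each, and the other 6 genes had 1 spot each.

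RNA of the hypothalamus was compared between a female and a male pool of Wistar Kyoto rats aged 9 weeks, to ask how the sexes differ in a brain region that takes part in cardiovascular control. Wistar Kyoto is an inbred rat strain with normal blood pressure, and per the labels the rats ate and drank freely and were killed with ether. Each pool mixed the RNA of 5 rats, 100 ng from each, and 150 ng of the mix was amplified, labelled with the dye Cy3 and hybridised to 1 Agilent array, so each sex had 1 array. No test was therefore possible, no p-value is given, and the spread between rats was not measured. Of 12 hypothalamic peptide genes, among them Oxt, Pmch and Hcrt, all 12 were well above background in both pools.

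GABA is the main inhibitory and glutamate the main excitatory transmitter of the brain, and hypothalamic circuits are built from neurons of both kinds. The enzymes encoded by Gad1 and Gad2 make GABA from glutamate, and the transporter encoded by Slc32a1 loads it into vesicles. Glutamate neurons are told apart by which of 3 vesicular transporters they use, and in the rodent hypothalamus most use that of Slc17a6. Astrocytes take up released transmitter, and the enzyme encoded by Glul turns glutamate into glutamine that neurons use to make both transmitters again.

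Each array probe is a DNA strand of 60 bases that captures 1 stretch of a transcript. Of the 9 probes, 4 are printed here because they show which stretch of Gad1, Gad2, Slc17a7 and Slc6a11 the results below rest on. Each can be read in at least 1 reading frame without a stop codon over its whole length, as can the Slc32a1 and Slc17a8 probes, which are not printed. Over 60 bases this does not show that a probe lies in coding sequence. The 4 printed probes are written 5′ to 3′ as in the array files, with positions in the rat build rn4, all on the plus strand. The Slc6a11 probe lies over 808 bases of the genome, with 748 more bases than its own length inside that span.
Gad1, probe 1, chr3:52813028-52813087: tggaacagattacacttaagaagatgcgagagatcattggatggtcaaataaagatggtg
Gad2, chr17:96321562-96321621: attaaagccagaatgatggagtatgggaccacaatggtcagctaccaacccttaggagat
Slc17a7, chr1:95649107-95649166: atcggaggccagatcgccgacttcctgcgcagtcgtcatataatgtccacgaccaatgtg
Slc6a11, chr4:150195271-150196078: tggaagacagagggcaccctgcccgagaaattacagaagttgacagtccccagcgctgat
The other probes are not printed, and their positions are chr3:52829951-52830010 for the second Gad1 probe, chr3:149347048-149347107 for Slc32a1, chr1:101465828-101465887 for Slc17a6 and chr7:26361525-26361584, on the minus strand, for Slc17a8. The files gave no genome position for the Glul probe.

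A level here is log2 of the processed spot signal minus log2 of the 75th percentile of that signal on the same array, so a level of 0 is a spot at that percentile. The percentile was a signal of 2943 in the female and 3769 in the male pool, 84.2% of non-control spots in the female and 84.9% in the male pool were well above background, and 0 spots were saturated. Differences are female minus male on the log2 scale. The technical SD given with a difference is the scatter between repeated spots of probes at a like level and covers the slide only. A second error, about 10% of the signal for a bright spot, is the one the array software wrote for each spot. Levels of different probes are not comparable as amounts of RNA, since probes differ in how well they bind and are labelled.

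The 2 pools were close for the genes of both transmitters. The median difference of the 8 genes was 0.0051, with 4 above and 4 below 0, against a median of 0.00012 over all 20664 measured genes, of which 50% were above 0. A difference of at least 1.2-fold was seen for 2 of the 8, Gad2 with more signal in the female pool and Slc17a7 with more in the male pool, while 13.1% of all measured genes were that far apart, 8.58% with more in the female pool and 4.52% with more in the male pool. At 1.5-fold the count was 0 of 8, against 2.4% of all measured genes. Fewer cells of a type and less RNA per cell cannot be told apart in whole tissue, here and in every result that follows.

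**Figure D1:**
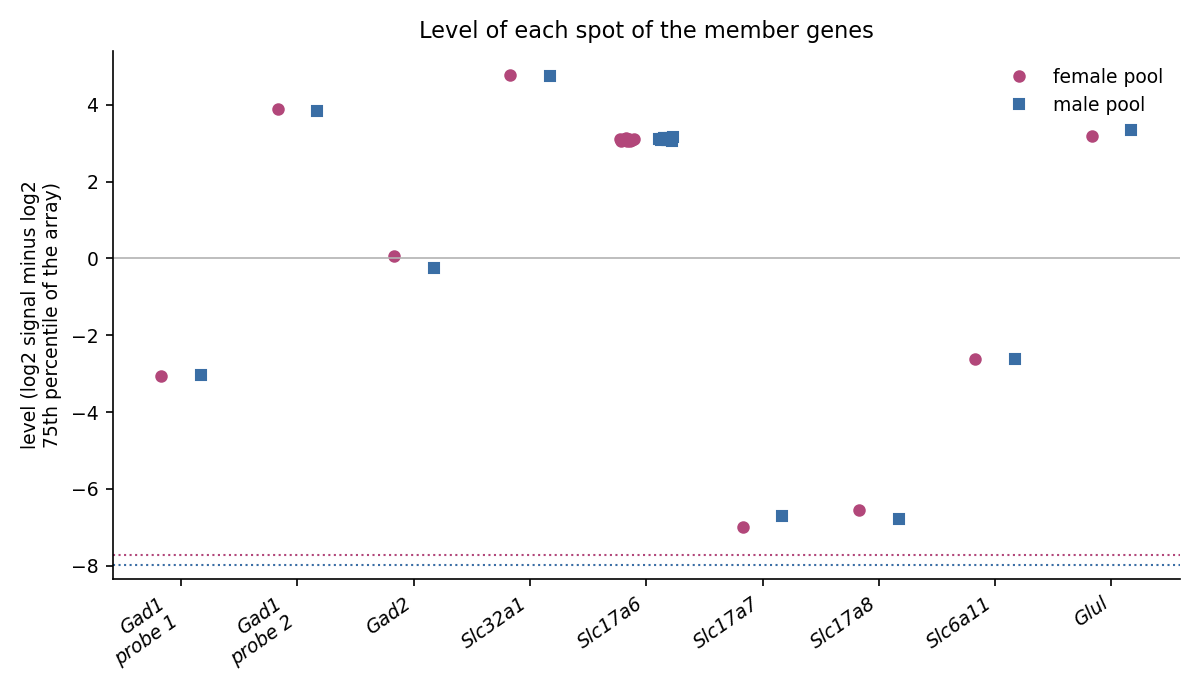
Level of every spot (vertical axis, log2 signal minus log2 of the 75th percentile of the array) for the 9 probes, female pool as circles on the left and male pool as squares on the right of each probe. Dotted lines mark the lowest level well above background, -7.72 in the female and -7.97 in the male pool, and only Slc17a7 and Slc17a8 lie near them.

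Among the GABA genes, Gad2 was the one with a difference beyond the spot scatter, and Gad1 and Slc32a1 were within it. The Gad2 level was 0.064 in the female and -0.24 in the male pool, from signals of 3076 in the female and 3193 in the male pool before each was scaled to its array. The difference was 0.30, or 1.23-fold, with a technical SD of 0.058, so it was 5.25 times the scatter of repeated spots. It was 1.48 times the error of the array software, 0.20. The measured genes were split by signal into 4 groups of 5166, and Gad2 fell in the third from the dimmest. There 6.56% of genes were at least 1.2-fold apart in either direction and 4.67% differed by as much as Gad2 or more, as did 10.3% of all genes. Gad2 rested on 1 spot and no second probe could be set against it.

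Gad1 was measured by probes at bases 853 and 3113 of its transcript record, which differed by 6.93 in level in the female and by 6.86 in the male pool. The first probe had a level of -3.05 in the female and -3.04 in the male pool, and the second had 3.88 in the female and 3.83 in the male pool. The differences between pools were -0.013 with a technical SD of 0.083 for the first and 0.054 with a technical SD of 0.055 for the second. The probes thus disagreed widely on the level and by 0.067, with a technical SD of 0.10, on the difference. Their mean difference was 0.021, with a technical SD of 0.050. The mean of their levels, which neither probe had, put Gad1 in the brightest of the 4 signal groups. The second probe lay in that group's range, where 4.03% of genes were at least 1.2-fold apart. The first lay in the range of the second group from the dimmest, where 11.9% were.

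Slc32a1 had a level of 4.78 in the female and 4.75 in the male pool. The difference was 0.032 with a technical SD of 0.052, and 80.7% of all genes were as far apart or farther. Gad2 differed more than its partners: its difference exceeded that of Gad1 by 0.28, with a technical SD of 0.076, and that of Slc32a1 by 0.27, with a technical SD of 0.078. These gaps were 3.70 and 3.48 times the scatter of repeated spots, and neither has a replicate array behind it. Beside the GABA genes, 9 of 11 measured pan-neuronal markers were also above 0, with a median of 0.081, a range of -0.12 to 0.29 and a summed level of 7.14 in the female and 7.04 in the male pool, and their part in the Gad2 value was not tested. On the scale of the spike-in controls that median was -0.014, with 2 of 11 above 0. All measured genes had a median of -0.095 on that scale, with 26.4% above 0.

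**Figure D2:**
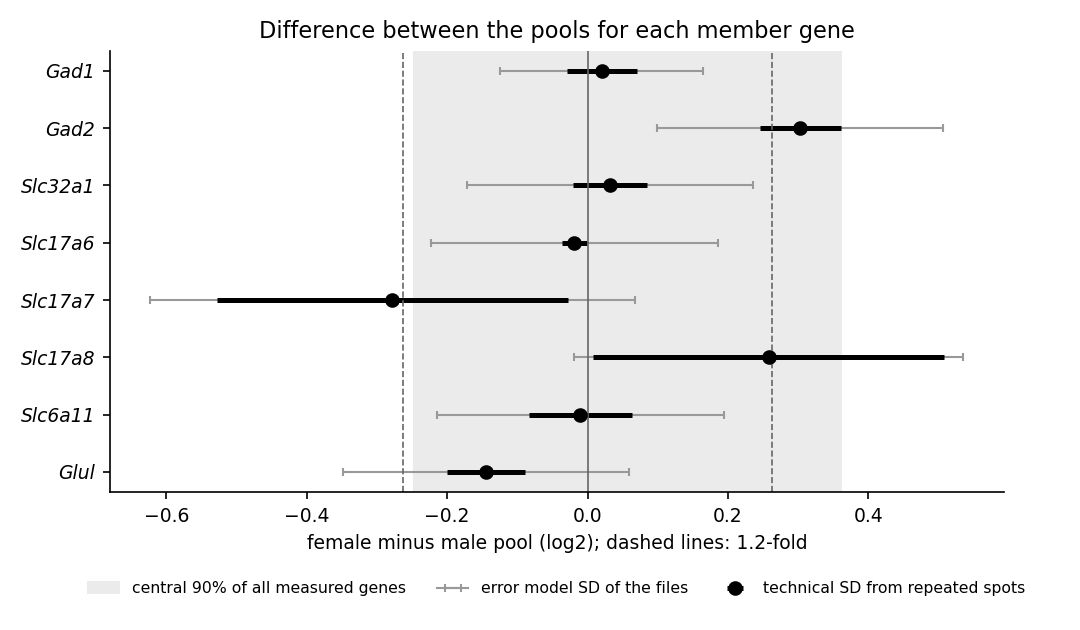
Female minus male difference (horizontal axis, log2) for each of the 8 genes. Thick bars are ± 1 technical SD from repeated spots, thin bars are ± 1 SD of the error model of the array software, the grey band leaves out the lowest and highest 5% of all measured genes (-0.25 to 0.36) and dashed lines mark 1.2-fold. The thin bar of Gad2 alone does not reach 0, and the thick bars of Gad1, Slc32a1 and Slc6a11 cross it.

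Slc17a6, the transporter that most hypothalamic glutamate neurons use, was the best measured of the 8 genes. Its 10 spots had levels of 3.04 to 3.14 with a median of 3.09 in the female pool, and of 3.07 to 3.15 with a median of 3.11 in the male pool. The ranges overlapped over most of their length, and the SD over spots was 0.028 in the female and 0.029 in the male pool. The difference was -0.019 ± 0.028 (SD, n = 10 spots), with a technical SD of the mean of 0.018, single spots between -0.055 and 0.035 and 7 of 10 below 0. These spots repeat 1 measurement of 1 pool and say nothing of the spread between rats. Under the other processing choices it ranged from -0.11, on the scale of the spike-in controls, to -0.0035, and centring each array on its median gave -0.057.

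**Figure D3:**
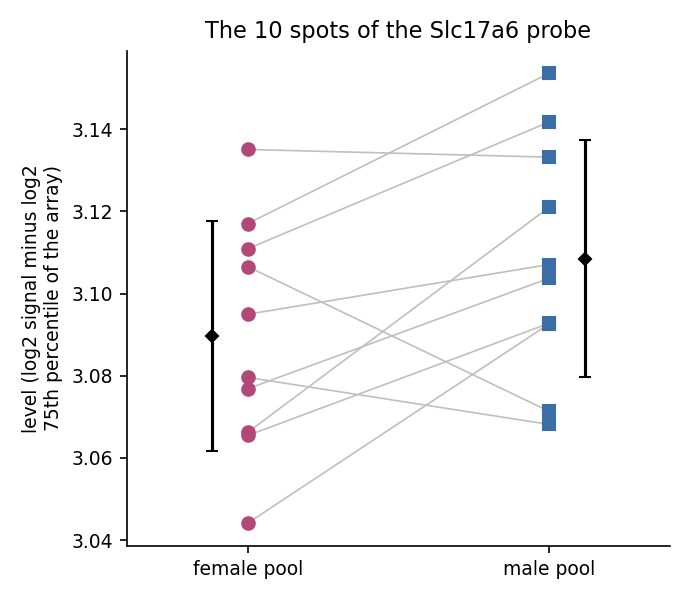
Levels of the 10 spots of the Slc17a6 probe (vertical axis, log2 signal minus log2 of the 75th percentile of the array), female pool on the left and male pool on the right, with lines joining the same slide position. Diamonds with bars are the mean ± SD over spots, and the spots of the pools overlap; 7 of the 10 were lower in females.

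The other 2 vesicular glutamate transporters were close to the detection limit, and their differences had opposite signs and sizes of 1.11 and 1.03 times the technical SD of such dim spots. Slc17a7, best known from cortical neurons, had a level of -6.99 in the female and -6.71 in the male pool. Its signals before scaling were 23.2 in the female and 36.0 in the male pool. The levels lay 0.74 above the lowest level well above background in the female and 1.26 above it in the male pool. The difference was -0.28, or 1.21-fold, with a technical SD of 0.25 and an error of 0.34 by the array software. In the dimmest signal group, 29.9% were at least 1.2-fold apart in either direction and 27.6% were as far apart as Slc17a7. Another background correction turned its sign, to 0.18.

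Slc17a8, which in rodents marks some serotonin and cholinergic neurons, had a level of -6.54 in the female and -6.79 in the male pool, from signals of 31.7 in the female and 34.0 in the male pool before scaling. The difference was 0.26 with a technical SD of 0.25, a 1.196-fold difference just under the 1.2-fold count, and 30.6% of genes in its signal group were as far apart. It exceeded the difference of Slc17a7 by 0.54, which was 1.52 times its technical SD of 0.35. Slc17a7 and Slc17a8 thus set the lower and upper end among the 3 glutamate genes on values that 1 dim spot each supplied.

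Neurons outside the hypothalamus also use these 2 transporters, so cortical and hindbrain markers, and those of the neighbouring thalamus, are given beside them. Of 10 cortical markers, 7 were measured, with a median difference of 0.0096 and 0 at 1.2-fold or more, and a summed level, log2 of the added signals over the 75th percentile, of -0.66 in the female and -0.57 in the male pool. Tbr1, Emx1 and Lmo3 were not measured in both pools. Of 9 thalamic markers, 8 were measured, with a median of 0.070, and a summed level of 4.22 in the female and 4.21 in the male pool. Of 7 hindbrain serotonin markers, 6 were measured, with 2 above and 4 below 0, a median of -0.36 and a summed level of -2.17 in the female and -1.71 in the male pool. Fev, a transcription factor of serotonin neurons, had levels of -7.27 in the female and -5.29 in the male pool, and the serotonin transporter Slc6a4 had -7.31 in the female and -5.43 in the male pool. En1, brighter than these, had levels of -3.51 in the female and -2.81 in the male pool, a difference of -0.70 with a technical SD of 0.088. Tph2, which makes the precursor of serotonin, differed by -0.019 with a technical SD of 0.23. Above 0 were Htr1a, a serotonin receptor gene, at 0.44 with a technical SD of 0.22 and Slc22a3 at 0.049. The listed genes of cholinergic neurons were also above 0. Chat was at 0.17 with a technical SD of 0.13, Slc5a7 at 0.070 with 0.066 and Slc18a3 at 0.033 with 0.066. Under normexp background correction the differences were -0.60 for Fev and -0.51 for Slc6a4, against -1.98 and -1.88 as processed here. The spots of Fev, Slc6a4, Tph2, Htr1a, En1 and Slc18a3 lay in slide rows where repeated spots often departed from each other. The part of these regions and cell types in the values of Slc17a7 and Slc17a8 was not tested.

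Taking means by transmitter, the GABA genes had a mean difference of 0.12 and a median of 0.032, with 3 of 3 above 0, and the glutamate genes had a mean of -0.013 and a median of -0.019, with 1 of 3 above 0. The GABA mean exceeded the glutamate mean by 0.13, with a technical SD of 0.12. Gad2 carried most of the first mean, since the other 2 GABA genes were at 0.021 and 0.032. The sign of the gap turned, to -0.049, under the background correction that turned Slc17a7.

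Of the astrocyte genes, Glul was lower in the female pool by more than the spot scatter, and Slc6a11 was close to 0. Slc6a11, an astrocytic GABA transporter, had a level of -2.62 in the female and -2.61 in the male pool, a difference of -0.010 with a technical SD of 0.074. Glul had a level of 3.20 in the female and 3.34 in the male pool, and the difference was -0.14, or 1.11-fold, with a technical SD of 0.056. That is 2.58 times the scatter of repeated spots but 0.71 times the error of the array software. As far apart were 31.6% of all genes and 15.4% of those in the brightest signal group, where Glul lay. Both spots lay in slide rows, holding 36.2% of the non-control spots, where 4.67% of repeated spots departed from their probe, against 0.358% elsewhere, and neither gene had a spot outside these rows. Glul was at -0.24 on the spike-in scale and between -0.18 and -0.13 under the other choices.

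Astrocyte markers as a list did not lean either way, with 6 of 12 above 0, a median of 0.0020 and a summed level of 6.29 in the female and 6.30 in the male pool. Single markers differed in both directions. Gfap, the intermediate filament of astrocytes, was at -0.24 with a technical SD of 0.021, and Gjb6, a gap junction gene, was at 0.24 with a technical SD of 0.018, each from 10 spots of which 3 lay in those rows. Slc1a3, the glutamate transporter that clears glutamate beside Glul, was at -0.075 from 2 probes, and Glul differed from it by -0.070 with a technical SD of 0.070.

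A further 21 genes of transmitter uptake, breakdown and renewal had no common direction. All 21 were measured, with a median of -0.019, 9 above and 12 below 0. A difference of at least 1.2-fold was seen for 3 of 21, Slc6a13, Slc38a1 and Slc1a1, each with more signal in the female pool, against 13.1% of all measured genes. Slc38a1 and Slc1a1 were below 1.2-fold on the spike-in scale, at 0.21 and 0.18, and with median centring, at 0.26 and 0.24. Slc6a13 passed 2-fold, as 0.847% of all measured genes did, but was just under it with normexp background correction, at 0.998.

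**Figure D4:**
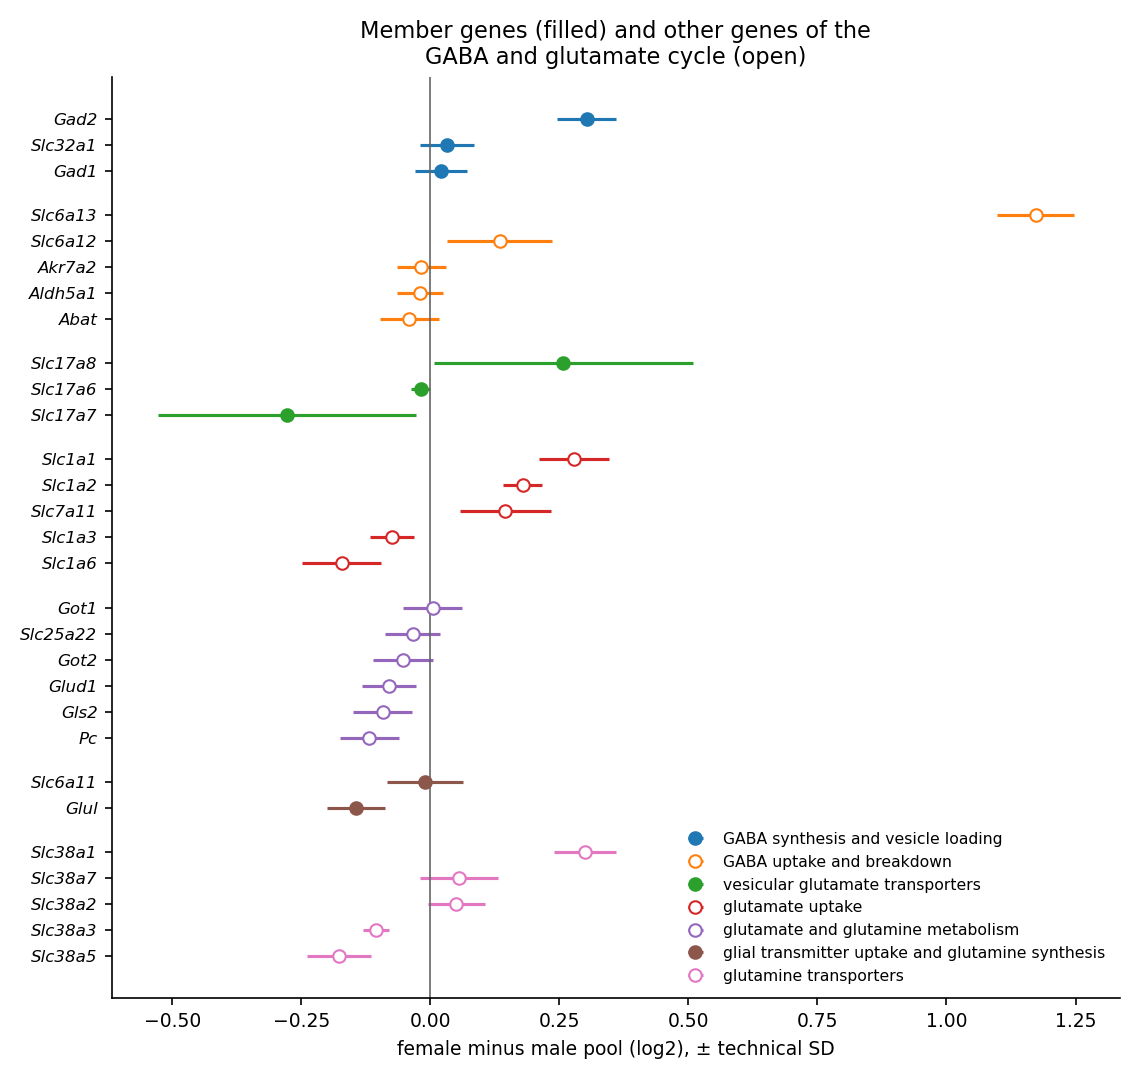
Female minus male difference (horizontal axis, log2, ± technical SD) of the 8 genes (filled) and 21 further genes of the GABA and glutamate cycle (open), by role. All genes other than Slc6a13, at 1.17, lie between -0.28 and 0.30.

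Slc6a13, a GABA transporter known from the meninges and the blood-brain barrier rather than from synapses, had a level of -2.05 in the female and -3.22 in the male pool. The difference was 1.17, or 2.25-fold, with a technical SD of 0.074, from 1 spot outside the rows that departed. Beside it, the signal of 12 of 12 meningeal and fibroblast markers was higher in females, at a median difference of 1.02 and a range of 0.54 to 1.92. Their summed level was 3.29 in the female and 2.34 in the male pool. Without the departing slide rows their median was 0.72 over the 7 genes left, with 7 of 7 above 0. The part of these markers in the Slc6a13 value was not tested. The betaine and GABA transporter Slc6a12 differed by 0.13, with a technical SD of 0.10. The listed enzymes of GABA breakdown were close to 0, with Abat at -0.041, Aldh5a1 at -0.019 and Akr7a2 at -0.018.

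Of the glutamate transporters of the cell surface, the neuronal Slc1a1 had a level of -1.12 in the female and -1.40 in the male pool, a difference of 0.28 with a technical SD of 0.068 from a spot inside the departing rows. Slc1a2, the main astrocytic one, was at 0.18 with a technical SD of 0.038, and its 2 probes gave 0.10 and 0.26. Slc1a6, known from cerebellar Purkinje cells, was at -0.17 with a technical SD of 0.076, also from a spot inside the departing rows. The cystine and glutamate exchanger Slc7a11 was at 0.15, with 1 of its 11 spots in those rows, and its 2 probes gave 0.058 and 0.23.

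The 6 listed enzymes and carriers of glutamate and glutamine metabolism lay between -0.12 and 0.0046, with 5 of 6 below 0. Pyruvate carboxylase, Pc, which feeds carbon into glutamate synthesis in astrocytes, was the lowest at -0.12 with a technical SD of 0.057, and the aspartate aminotransferase Got1 was the highest. Of the glutamine transporters, Slc38a1, found on neurons, had a level of -0.86 in the female and -1.16 in the male pool, and its difference was 0.30 with a technical SD of 0.060. The astrocytic Slc38a3 was at -0.11 with a technical SD of 0.025 from 10 spots, and Slc38a5 at -0.18 with a technical SD of 0.062. Slc38a2 and Slc38a7 were at 0.050 and 0.056, each within the scatter.

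The scale of the arrays sets where 0 lies for all these values. Under 11 other processing choices Gad2 stayed between 0.21 and 0.31 and Slc17a8 between 0.16 and 0.32, while Gad1, Slc32a1 and Slc6a11 took both signs, within -0.11 and 0.054. Scaling on the spike-in controls put the median of all genes at -0.095 and left 1 of the 8 genes, Slc17a7, at 1.2-fold or more.

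**Figure D5:**
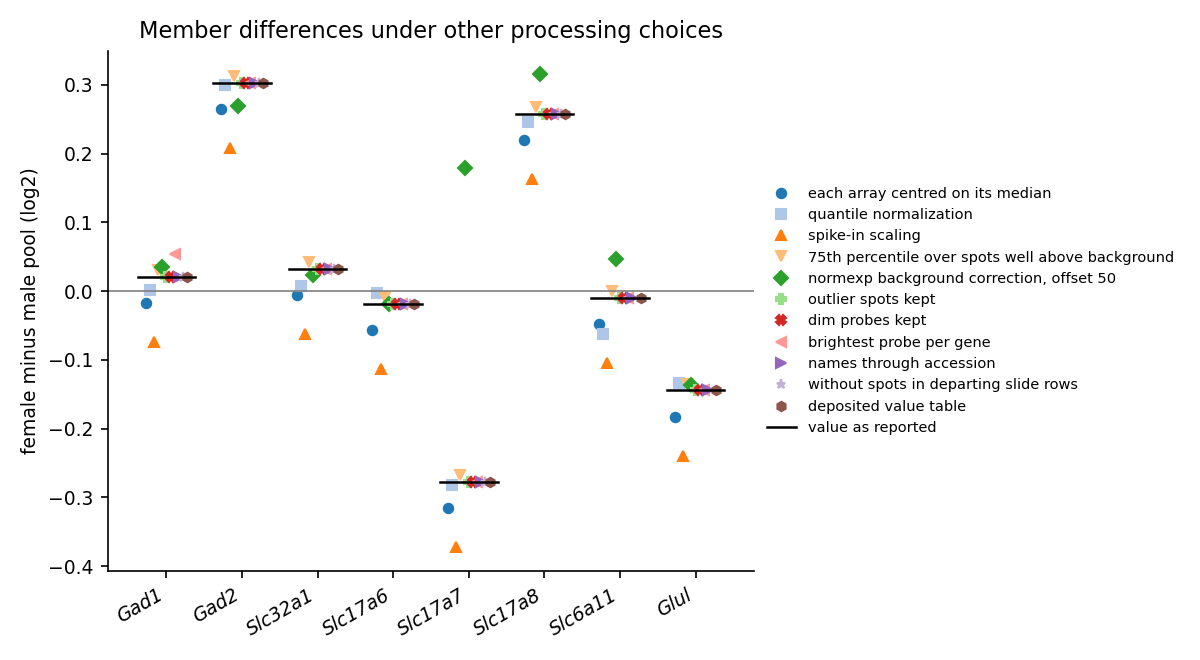
Female minus male difference (vertical axis, log2) of the 8 genes as reported (black lines) and under 11 other processing choices (symbols). Scaling on spike-in controls lowers every gene by a like amount, and the normexp background correction moves Slc17a7 to 0.18.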

How the data were processed

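Slide and scan were shared by the arrays, per the file headers. Each spot has an intensity in the deposited scanner files; per the file headers it was background-subtracted and corrected for a spatial trend by Feature Extraction 10.7.3.1, on build rn4, while the submitters' processing notes name Feature Extraction 9.1. The signal in the deposited value table equalled this intensity over its array's 75th percentile, times 100, on a linear scale without gene centring, with medians of 29.5 in the female and 29.0 in the male pool. The deposited flags for background, saturation and outlier spots, and other spot values, were the software's.

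Outlier spots were left out (292 female, 286 male). A probe counted as measured with over 50% of spots well above background on each array, and probes of a gene were averaged. The technical SD came from 100 repeated probes of like level, each with at least 5 spots, over the root of the number of spots. Python 3.11.15, R 4.3.3 and limma 3.58.1 (normexp, offset 50) were used, and the calculation was tested on simulated data. The accession of all 9 probes gave the same symbol in a gene table of assembly GRCr8. The 8 genes and the gene lists were chosen with earlier results of these data known. Named were all 8 genes, the genes of the transmitter cycle, the region and astrocyte markers beside the genes they bear on, and the 3 largest differences of other lists; some genes of these lists are not reported here, and list counts leave them out; Oxt, Pmch and Hcrt are named as tissue markers only. Samples were grouped by the labels' sex, the comparison had no replicate, and precision is limited by the number of arrays.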

Additional observations from a re-analysis of the deposited data

How the results depend on the processing

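No paired analysis was possible because each sex was 1 array. Scaling on spike-in controls moved the median of the 8 genes to -0.090 and left 1 gene at 1.2-fold or more. It lowered every gene by the same amount, which exceeded the technical SD of 6 of the 8 (Gad1, Gad2, Slc32a1, Slc17a6, Slc6a11 and Glul). The other 2, Slc17a7 and Slc17a8, were dim, with a technical SD of 0.25. The gap between GABA and glutamate genes moved to -0.049 under normexp background correction. Normexp turned Slc17a7 to 0.18, so that the 2 genes at 1.2-fold or more were Gad2 and Slc17a8; the cause was not tested. Over the 11 alternatives, 78 single-gene values moved by less than the technical SD and 7 by more. Slc17a7 under normexp, which changed sign, was counted apart. Gad1, Slc32a1 and Slc6a11 also changed sign under some choices, from values within their technical SD, and are in the other counts. Several choices could hardly move these genes, so the 78 do not measure robustness. Their spots had no outlier flags and were well above background, their accessions gave the same symbols, and the deposited values were the same signal rescaled. Normexp was fitted without 2 spots whose local background was over 100 times the array's median. With the 75th percentile taken over well-measured spots only, 3 of the 8 genes were at 1.2-fold or more, Slc17a8 among them. Leaving out the departing slide rows (61 to 180, 401 to 460 and 521 to 532) removed Slc6a11 and Glul, so 6 genes remained. The number of all genes at 1.2-fold or more was 2708, against 1583 without those rows (14229 genes tested in place of 20664) and 5283 with dim probes kept (26328 tested). Of such genes 65.5% had more signal in the female pool, against 53.6% with median centring, 33.9% with spike-in scaling and 90.7% with normexp. Dim spots limit Slc17a7 and Slc17a8, and the number of arrays limits all values.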

Other observations

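Transcription factors that mark GABA neurons leaned to the female pool on the 75th percentile scale. Of 12 listed, 10 were measured and 9 were above 0, with a median of 0.11, against 50% of all measured genes above 0. On the spike-in scale the median was 0.018 with 5 above 0, where all measured genes had a median of -0.095 with 26.4% above 0. Without the departing slide rows it was 0.068 over 6 genes, against -0.0010 over all genes left. Six3 had a level of -3.26 in the female and -3.54 in the male pool, a difference of 0.27 with a technical SD of 0.096. Isl1, a factor of arcuate and other GABA neurons, was at 0.27 with a technical SD of 0.074, and Lhx6 at 0.24 with a technical SD of 0.057. The spots of Six3 and Isl1 lay in the departing slide rows and that of Lhx6 did not, and on the spike-in scale the 3 were at 0.18, 0.17 and 0.14. Of the 11 transcription factors of hypothalamic glutamate neurons, 7 were above 0, with a median of 0.016. That median took both signs under other processing, from -0.079 with 3 of 11 above 0 on the spike-in scale to 0.086 with 9 of 11 above 0 under normexp background correction. Under normexp all measured genes had a median of 0.050, with 63.6% above 0. Lmx1b was at 0.38 with a technical SD of 0.11 from a spot in the departing rows, Nr5a1, a factor of the ventromedial nucleus, at 0.16, and Sim1, a factor of the paraventricular nucleus, at 0.15 with probes at -0.14 and 0.44; the 2 were at 0.066 and 0.054 on the spike-in scale.

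Of the listed genes of other transmitters, 8 of 11 were below 0, with a median of -0.19, while 50% of all measured genes were above 0. The 3 above 0 were the cholinergic genes Chat at 0.17, Slc5a7 at 0.070 and Slc18a3 at 0.033. Tph2, at -0.019, was among the 8. The median was -0.10 over the 7 genes left without the departing slide rows and -0.053 under normexp background correction. The dopamine transporter Slc6a3 had a level of -2.83 in the female and -2.29 in the male pool, a difference of -0.54 whose 2 probes gave -0.83 and, from a spot in the departing rows, -0.25. Th, the first enzyme of dopamine synthesis, had 2.69 in the female and 3.11 in the male pool, a difference of -0.42 with a technical SD of 0.057 from a spot in the departing rows. The serotonin transporter Slc6a4 differed by -1.88 with a technical SD of 0.25, from a dim spot in the departing rows, and by -0.51 under normexp background correction. All rest on 1 array per sex, and the difference between these lists was not tested.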
